A study of Mus musculus with 30 samples.

Results

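The matrix metalloproteinases (MMPs), the ADAM and ADAMTS proteases, the ADAMTS-like proteins and the tissue inhibitors of metalloproteinases (TIMPs) were followed in 3T3-L1 preadipocytes during the days before differentiation. Genes were taken by mouse symbol (Mmp, Timp, Adam, Adamts or Adamtsl and a number, pseudogenes left out), which gave 83 of the 55573 genes listed. Of these, 41 reached 0.5 CPM (read counts scaled to a common library total) in 5 or more of 30 libraries and are described here. At that minimum the least widely detected were Adamts3, with 6 libraries, and Adamts15, with 11, while Mmp25 and Mmp27, with 4 libraries each, lay just outside it. Of the 41 genes, 34 were in the deposited count table and were tested there. The other 7 (Mmp10, Mmp16, Adam1a, Adam5, Adamts3, Adamts15 and Adamts16) were low, and their values come from reads recovered from the CPM table; Adamts3 and Adamts15 reached the minimum in 3 of the 6 groups and Adam5 in 4, so a difference of theirs between groups is partly built into the choice.

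3T3-L1 is an established mouse embryonic fibroblast line that turns into adipocytes after hormonal induction. All cells were transfected while sub-confluent, on day −3, with 50 nM siRNA in Lipofectamine RNAiMAX. The siRNA was either a non-targeting control, called scramble, or one against Kdm5c, which encodes a histone H3 lysine demethylase. Cells were collected 24, 48 or 72 h later, on day −2, day −1 or day 0, with 5 libraries in each of the 6 groups. The scramble cells thus shared the transfection with the others, and untransfected cells were not analysed here. The labels do not say whether replicates were separate cultures, so each p reflects library-to-library spread, part or all of which may be technical.

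MMPs are zinc proteases made as inactive precursors; most are secreted and cut collagens, gelatin, proteoglycans and one another, while membrane-type MMPs stay at the cell surface. TIMPs bind and block the active enzymes. ADAMs are membrane proteins, many of which release growth factors, cytokines and adhesion proteins from the cell surface, and ADAMTS enzymes are secreted proteases that process procollagens, proteoglycans and microfibril proteins. In adipose tissue, remodelling of the collagen matrix accompanies the change from fibroblast-like precursor to rounded fat cell, and Mmp14 is known to be needed for normal fat pad growth in mice. These data hold transcript levels only, not protein, activation or enzyme activity.

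Library totals ran from 25217905 to 33725717 reads, so that 3 reads, the limit a count of 0 allows, equal 0.089 to 0.119 CPM (counting error only). Kdm5c mRNA stood at 16.2%, 18.9% and 25.2% of the scramble level on days −2, −1 and 0. All 7 of 7 fibroblast markers were expressed, with summed levels of 25324 to 37455 CPM over the libraries. Of 7 mature adipocyte markers 1 reached a group mean of 1 CPM, and Cfd was at 0 in all 6 groups; on day 0 the markers summed to 22 to 28.8 CPM with scramble and 28.7 to 35.5 CPM with Kdm5c siRNA, and their part in the results was not tested. Macrophage markers summed to 2.6 to 9.12 CPM, with 2 of 5 at a mean of 1 CPM or more in every group and Adgre1 at 0. Endothelial markers summed to 0.982 to 2.76 CPM, with at most 1 of 4 at a group mean of 1 CPM. Epithelial markers summed to at most 0.391 CPM with Epcam at 0. Scramble day −1 replicates 1 to 3 stood apart from replicates 4 and 5: Mmp2, for example, was at 629, 636 and 666 CPM in the former and at 545 and 534 CPM in the latter. Counts and calls that involve day −1 are therefore also given without those 3 libraries. Kdm5c siRNA replicate 2 of day −2 was the library farthest from its group (SD of log2 differences from the others 0.162, against at most 0.137 elsewhere), and without it 9 members were called higher and 5 lower with Kdm5c siRNA on day −2, against 8 and 5 with it (9.4% and 9.95% of all genes were called higher and lower without it).

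The family's summed transcripts rose as scramble cells went from day −2 to day 0. The 41 genes together made up 3107 ± 20.8 CPM on day −2, 3847 ± 180 on day −1 and 6883 ± 334 on day 0 (SD, n = 5). The 8 secreted MMPs carried most of the gain, with summed levels of 315.8 ± 14.6, 768.4 ± 66.7 and 2469 ± 229 CPM. Most of the gain of this class came from Mmp2 alone. The 3 membrane MMPs summed to 502.1 ± 8.08, 734 ± 30.9 and 1209 ± 43.9 CPM, while the 3 TIMPs stayed between 796 ± 10.9 and 948.8 ± 14.2 CPM. The 11 ADAMs summed to 808.7 ± 7.69 CPM on day −2 and 1058 ± 21.8 on day 0. The 5 proteoglycan-cutting ADAMTS genes rose from a summed 296.8 ± 21 to 835 ± 34.8 CPM, mostly through Adamts1. Sums of CPM weigh long transcripts more heavily than short ones, and they carry no test. In bulk libraries, fewer cells of a type and less RNA per cell cannot be told apart.

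Levels were ranked between genes per kilobase of exon. In scramble cells on day −2 the most abundant was Timp1, at 423 ± 10.9 CPM per kb, followed by Timp2 (119 ± 1.85), Mmp14 (79.8 ± 1.34), Mmp2 (69.6 ± 3.62), Adam9 (60.9 ± 2.22), Adam10 (36.8 ± 0.592) and Adamts1 (35.6 ± 2.78). Timp3, Adam12 and Adam15 completed the leading 10, the last of them at 11.1 ± 0.335 CPM per kb, next to Mmp23 at 11.1 ± 0.311, so those neighbours did not differ beyond their spread; nor did Adam10 and Adamts1. On day 0 Mmp2 led at 645 ± 64.1 CPM per kb, ahead of Mmp14 (196 ± 7.29), Timp2 (134 ± 2.02), Timp1 (133 ± 9.81), Adamts1 (113 ± 5.55), Adam9 (54.1 ± 1.0), Adam10, Timp3, Mmp11 and Mmp19 (22.7 ± 0.945). Timp2 and Timp1 did not differ beyond their spread on that day. With the longest transcript as the length, Mmp14 came before Timp2 and Mmp2 on day −2, and 9 of the 10 leading genes were shared on either day.

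The comparison of days in scramble cells showed which members changed between day −2, day −1 and day 0. These days were also 24, 48 and 72 h after transfection. Nearness to differentiation, time since transfection and time in culture therefore cannot be told apart. From day −2 to day −1, 23 of 34 members rose and 6 fell, at an edgeR quasi-likelihood adjusted p under 0.05 over all 12016 genes, where 39.5% of all genes were called higher and 39.4% lower. Their median log2 fold change was 0.35, against 0.00 over all genes. From day −1 to day 0, 28 rose and 5 fell, where 36.8% of all genes were called higher and 37.9% lower; the median was 0.68, against −0.01 over all genes. At both steps 22 members rose and 3 fell (Adam12, Adamts14 and Timp1), where 26.7% of all genes were called higher and 27.7% lower at both, and Adam8 rose and then fell. Without scramble day −1 replicates 1 to 3, 21 members rose and 5 fell in the first step (35.7% of all genes called each way), and 28 rose and 5 fell in the second (34.2% and 35.4%). The first-step calls lost in that fit were those of Adamts1, Adam19 (adjusted p = 0.171) and Adamtsl3 (adjusted p = 0.293). On recovered reads, 3 of the 7 low members rose and 0 fell in the first step. Of 14219 genes, 5299 were called higher there and 5176 lower. In the second step 2 low members rose and 4 fell, where 4799 genes were called higher and 4998 lower. For Adamts3, Adamts15 and Adam5 such calls are partly built into the choice of members. Both steps use the day −1 libraries, so their values are not independent of each other.

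**Figure D1:**
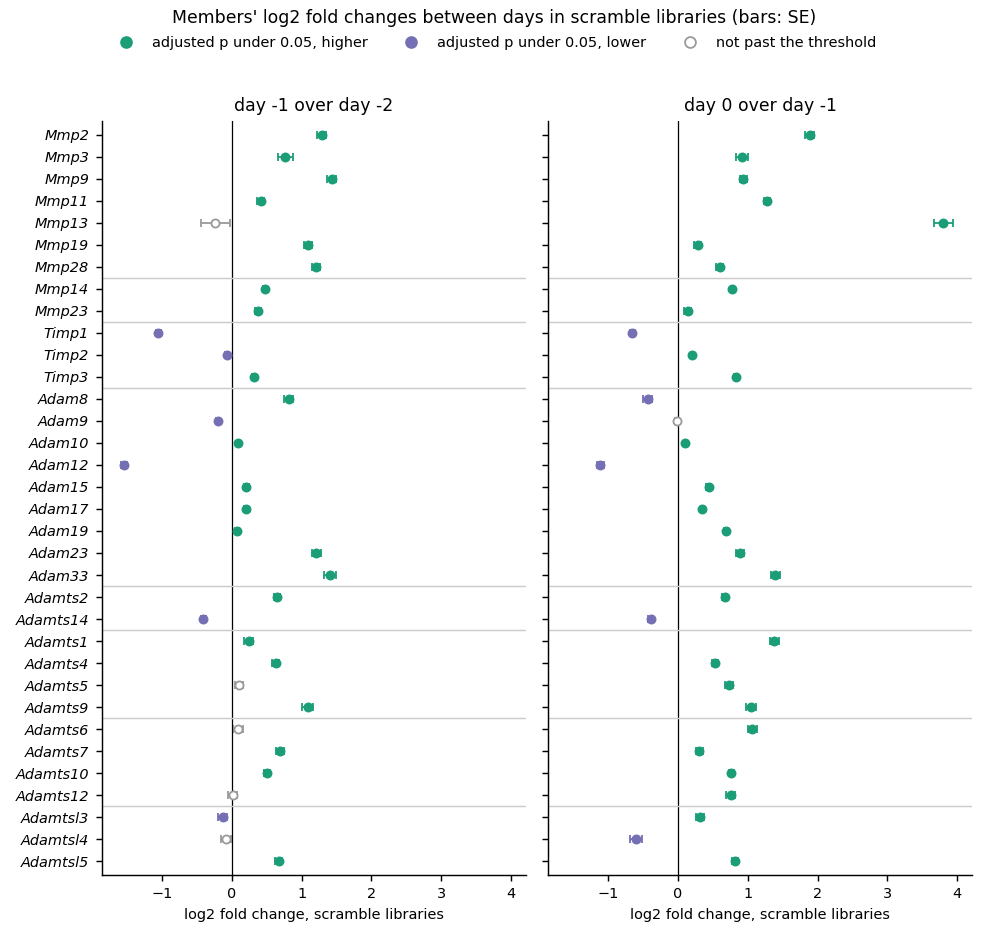
Log2 fold changes of the 34 tested members between successive days in scramble libraries (x axis, edgeR estimate with SE), grouped from top to bottom as secreted MMPs, membrane MMPs, TIMPs, ADAMs, procollagen ADAMTSs, proteoglycan ADAMTSs, other ADAMTSs and ADAMTS-like genes. Filled points passed the test. All 7 secreted MMPs shown, which leave out Mmp10, lie right of 0 in the second panel, with Mmp13 farthest at 3.80. Adam12 and Timp1 lie left of 0 in both.

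Among the 7 secreted MMPs tested on deposited counts, 6 rose in the first step and 7 in the second. The low Mmp10, fitted on recovered reads, was not called in the first step. It was called lower in the second, from 0.917 to 0.626 CPM, where 4998 of 14219 genes were called lower. Mmp2, gelatinase A (GRCm38 chromosome 8, 92827291 to 92853420, plus strand), measured 254, 229, 221, 236 and 231 CPM in scramble replicates 1 to 5 on day −2. It measured 629, 636, 666, 545 and 534 CPM on day −1 and 1845, 2336, 2063, 2293 and 2333 CPM on day 0. The 3 groups did not overlap, and the log2 fold changes were 1.29 (SE 0.06, edgeR adjusted p = 2.44e-19) and 1.89 (SE 0.06, adjusted p = 1.01e-23).

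Mmp13, collagenase 3 (chromosome 9, 7272514 to 7283331, plus strand), was low on the first 2 days and passed the test in the second step. Its scramble values were 2.2, 2.23, 2.58, 3.23 and 2.15 CPM on day −2 and 2.04, 1.82, 2.76, 2.24 and 2.15 CPM on day −1, which overlapped (log2 fold change −0.24, SE 0.20, edgeR adjusted p = 0.291). On day 0 they were 23.2, 36.0, 27.2, 33.4 and 30.5 CPM, all above those of day −1, with a log2 fold change of 3.80 (SE 0.14, edgeR adjusted p = 3.7e-22). Whether the 2 steps differ was not tested for this gene.

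Mmp9, gelatinase B (chromosome 2, 164940780 to 164955850, plus strand), rose at both steps. Its values were 10.9, 10.5, 11.2, 10.7 and 12.4 CPM on day −2, 31.9, 32.7, 33.9, 31.5 and 27.5 CPM on day −1, and 57.3, 59.9, 59.1, 59.7 and 57.6 CPM on day 0. The groups did not overlap, and the log2 fold changes were 1.43 (SE 0.06, edgeR adjusted p = 2.1e-20) and 0.93 (SE 0.05, adjusted p = 1.41e-17). Mmp28 (epilysin), Mmp19, Mmp3 (stromelysin 1) and Mmp11 (stromelysin 3) rose at both steps as well, Mmp11 from 21.7 ± 1.13 to 30.4 ± 1.19 and 71.6 ± 4.01 CPM. Mmp14, the membrane protease that activates the Mmp2 precursor, rose from 475.8 ± 7.98 to 698.2 ± 30.2 and 1170 ± 43.4 CPM, and Mmp23 from 25.9 ± 0.729 to 35.3 ± 1.75 and 38.0 ± 1.51 CPM.

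The TIMPs went different ways. Timp1 (chromosome X, 20870166 to 20874735, plus strand) measured 363, 376, 378, 390 and 373 CPM on day −2, 191, 182, 189, 197 and 194 CPM on day −1, and 129, 112, 123, 119 and 107 CPM on day 0 in scramble cells. It fell at both steps with no overlap, by 1.05 and 0.66 on the log2 scale (SE 0.04 at each, edgeR adjusted p = 3.23e-23 and 3.69e-17). Timp3 rose over the same days from 108.7 ± 2.77 to 142.1 ± 4.61 and 247.8 ± 3.15 CPM. Timp2, which also takes part in Mmp2 activation, measured 464.0 ± 7.22, 463.4 ± 12.2 and 522.2 ± 7.87 CPM; its first step passed as lower (log2 fold change −0.07, edgeR adjusted p = 0.00153) but not with upper-quartile scaling (−0.01, adjusted p = 0.589) or with library totals alone (0.00, adjusted p = 0.93), and its second step was higher (0.21, adjusted p = 7.97e-11).

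Of the 9 tested ADAMs, 7 rose and 2 fell in the first step, and 6 rose and 2 fell in the second. Adam12, a catalytic ADAM also known as meltrin alpha (chromosome 7, 133883199 to 134232146, minus strand), measured 112, 118, 111, 120 and 126 CPM on day −2, 40.7, 45.2, 41.7, 41.6 and 43.3 CPM on day −1, and 18.7, 18.6, 18, 19.9 and 20.7 CPM on day 0. It fell by 1.54 and then 1.11 on the log2 scale (SE 0.04 and 0.05, edgeR adjusted p = 1.61e-25 and 1.36e-19), and no library overlapped the next group. Adam33 rose from 3.19, 2.39, 3.04, 2.81 and 2.99 CPM to 8.04, 9.18, 7.93, 6.93 and 8.0 CPM and then to 19.3, 20.5, 19.6, 20.5 and 23.2 CPM (log2 fold changes 1.40 and 1.40, SE 0.09 and 0.07, edgeR adjusted p = 3.06e-16 and 1.84e-19). Adam23, an adhesion protein without the zinc-binding catalytic motif, rose from 66.5, 64.3, 60.7, 62.1 and 61.4 CPM to 168, 168, 164, 133 and 134 CPM and then to 277.1 ± 13.7 CPM, with no overlap (first step 1.21, SE 0.06, edgeR adjusted p = 2.64e-18). Of the sheddases, Adam10 measured 180.7 ± 2.91, 202.1 ± 5.29 and 211.6 ± 3.37 CPM and Adam17 75.8 ± 1.48, 91.8 ± 2.69 and 114.1 ± 3.01 CPM, each rise passing the test. Adam8 measured 9.13, 8.28, 8.67, 10.3 and 9.12 CPM, then 15.7, 16, 17.4, 18.4 and 16.3 CPM, then 12.3, 11.1, 12.9, 13.4 and 10.8 CPM, so that day −1 was above both other days. Adam9 measured 254, 262, 255, 242 and 241 CPM on day −2 and 228, 240, 235, 222 and 224 CPM on day −1, a fall with no overlap (log2 fold change −0.20, edgeR adjusted p = 7.88e-09), and 222.8 ± 4.12 CPM on day 0. The first-step rise of Adam19 (0.07, adjusted p = 0.0449) was not called with median-of-ratios scaling (adjusted p = 0.0595).

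Of the 4 tested proteoglycan-cutting ADAMTS genes, 3 rose in the first step and 4 in the second. Adamts1, a proteoglycan-cutting enzyme (chromosome 16, 85793827 to 85803113, minus strand), measured 190, 208, 196, 169 and 182 CPM on day −2, 261, 260, 232, 219 and 204 CPM on day −1, and 566, 636, 569, 607 and 608 CPM on day 0. The first step (log2 fold change 0.24, edgeR adjusted p = 0.000733) overlapped and was lost without scramble day −1 replicates 1 to 3 (0.09, adjusted p = 0.26), and the second was 1.38 (SE 0.06, adjusted p = 7.72e-20). Adamts5, its neighbour on chromosome 16 and an aggrecan-cutting enzyme, measured 75.4 ± 5.9, 85.4 ± 4.57 and 138.4 ± 3.68 CPM; its first step was not called (adjusted p = 0.0685), but was with upper-quartile scaling (0.00567) or library totals alone (0.00313). The procollagen N-proteinases went opposite ways: Adamts2 rose from 36.4 ± 1.14 to 60.3 ± 3.57 and 93.6 ± 5.73 CPM, and Adamts14 fell. The latter measured 52.7, 49.2, 50.5, 54.9 and 53 CPM on day −2 and 40, 40.2, 39.4, 44 and 42.9 CPM on day −1, with no overlap (log2 fold change −0.41, SE 0.03, edgeR adjusted p = 6.99e-13), and 30.8 ± 0.916 CPM on day 0. Of the low genes, Adamts15 was at 0.0334 ± 0.0405, 0.325 ± 0.142 and 1.49 ± 0.34 CPM and Adamts16 at 0.396 ± 0.171, 1.63 ± 0.373 and 0.917 ± 0.112 CPM; the first of these values is below the level of 3 reads. Adamtsl4, an ADAMTS-like protein of fibrillin microfibrils without protease domain, fell in the second step, from 7.26, 6.49, 6.22, 6.53 and 6.87 CPM to 4.01, 4.91, 4.45, 4.25 and 3.91 CPM with no overlap (log2 fold change −0.60, SE 0.08, edgeR adjusted p = 7.32e-08).

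The comparison of Kdm5c siRNA with scramble on each day asked which members differed 24, 48 and 72 h after transfection. On day −2, 8 of 34 members were higher and 5 lower, where 11.3% of all genes were called higher and 11.9% lower. On day −1, 12 were higher and 9 lower, where 18.8% of all genes were called higher and 16.8% lower; without scramble day −1 replicates 1 to 3 the counts were 12 and 4, where 10.7% of all genes were called each way. On day 0, 12 were higher and 8 lower, where 19.3% of all genes were called higher and 16.2% lower. The members' median log2 fold changes were 0.04, 0.04 and 0.02, against 0.00 over all genes on each day, so the changes went in both directions. Libraries of the siRNAs did not overlap for 6, 14 and 16 members, where 16.1%, 22.3% and 21.7% of all genes did not overlap in either direction. Of the 34 members, 29 were called on at least 1 day, as were 54.7% of all genes. Adam12, Adamts14, Adamtsl4 and Mmp23 were higher on all 3 days (5.32% of all genes) and Mmp28 and Adamtsl5 were lower on all 3 days (5%). Adam10, Adam15, Adam17, Adam19 and Adamts4 were called on no day, but 2 of them were in an alternative fit: Adamts4 on day −1 without scramble replicates 1 to 3 (0.24, adjusted p = 0.000634, against 0.09 and 0.156) and Adam19 on day 0 with library totals alone (−0.08, adjusted p = 0.0439).

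Without scramble day −1 replicates 1 to 3, the day −1 log2 fold changes of the members still called higher were 0.55 for Adamts7, 0.46 for Mmp9, 0.44 for Adam12, 0.41 for Adamts12, 0.33 for Adamtsl4, 0.32 for Mmp11, 0.27 for Adamts14, 0.20 for Timp1, 0.18 for Mmp23 and 0.13 for Adam9. Those of the members still called lower were −0.33 for Mmp28, −0.28 for Adamts9, −0.26 for Adamts1 and −0.21 for Adamtsl5. Mmp19, besides Adamts4, gained a call (0.19, edgeR adjusted p = 0.0498), and the 7 lost calls are given with their genes.

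**Figure D2:**
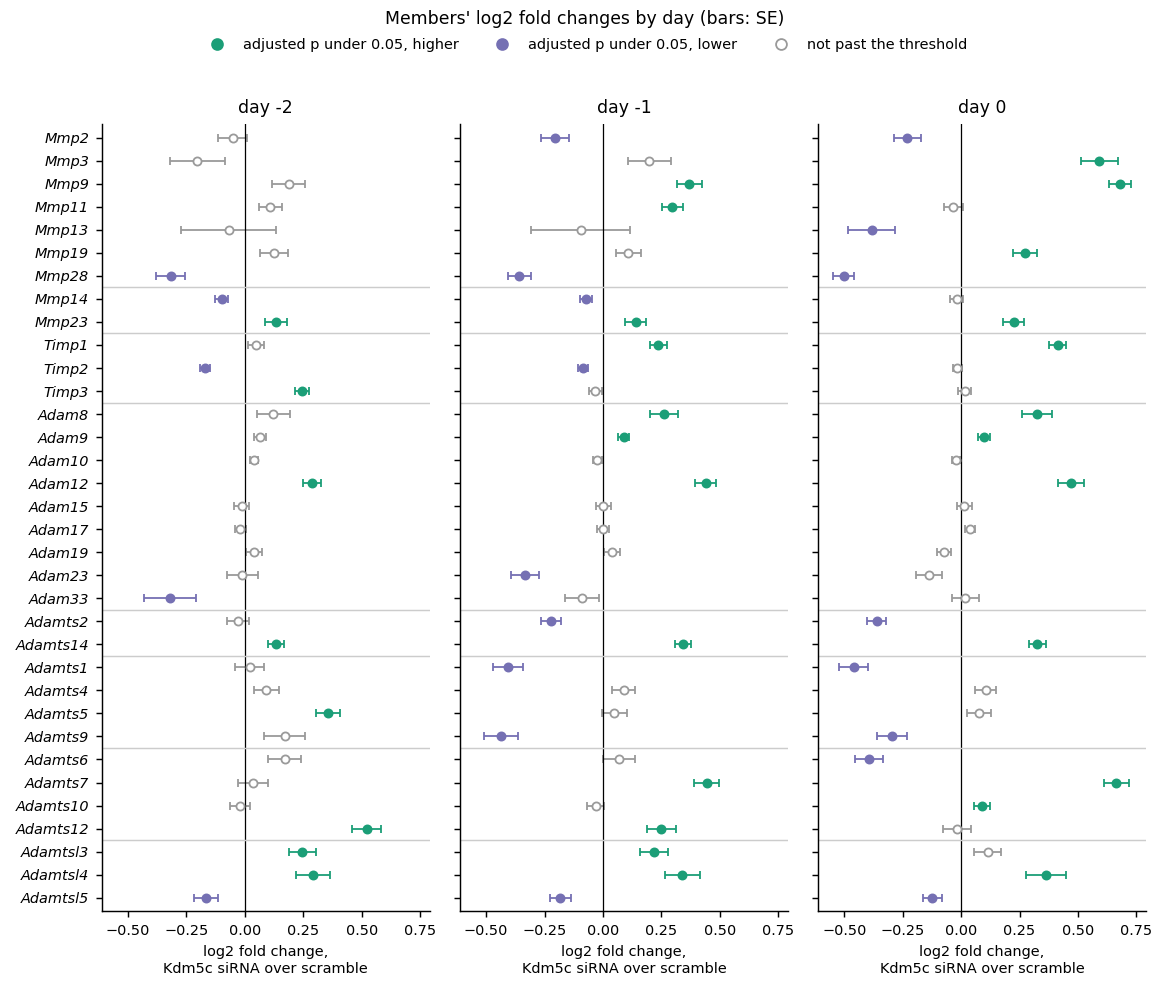
Log2 fold changes of the 34 tested members, Kdm5c siRNA over scramble, on days −2, −1 and 0 (x axis, edgeR estimate with SE), in the same order of groups as the plot of scramble steps. Filled points passed the test; Mmp9, Adamts7 and Mmp3 lie farthest right on day 0, at 0.68, 0.66 and 0.59, and Mmp28 farthest left at −0.50.

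Among the secreted MMPs tested on deposited counts, 3 of 7 were higher on day 0 (Mmp9, Mmp3 and Mmp19) and 3 were lower (Mmp28, Mmp13 and Mmp2). Mmp9 measured 88.8, 95.1, 94.7, 93.3 and 97.7 CPM with Kdm5c siRNA, every library above the scramble range of 57.3 to 59.9 CPM (log2 fold change 0.68, SE 0.05, edgeR adjusted p = 2.17e-13). On day −1 it measured 39.3, 36.4, 45.9, 42.6 and 39.2 CPM, again all above scramble (0.37, SE 0.05, adjusted p = 9e-07). On day −2 the values of 14.3, 12.6, 12.5, 12.2 and 11.5 CPM overlapped those of scramble (0.19, adjusted p = 0.0509). The effect on day 0 was larger than on day −2 by 0.49 (SE 0.09, edgeR adjusted p = 9.91e-05 for the difference of effects).

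Mmp3 (chromosome 9, 7445822 to 7455975, plus strand) measured 23.5, 23.7, 29.6, 30 and 29 CPM with Kdm5c siRNA on day 0, against 16, 18.9, 19, 19.8 and 16.6 CPM with scramble. The groups did not overlap, and the log2 fold change was 0.59 (SE 0.08, edgeR adjusted p = 2.75e-07). On day −1 its values of 12.1, 8.75, 12.1, 11.6 and 11.7 CPM overlapped those of scramble, 9.65, 9.68, 10.9, 9.58 and 9.13 CPM (0.20, adjusted p = 0.0959). Day −2 was also without a call, at 4.73 ± 0.629 against 5.46 ± 0.474 CPM. Mmp19 was at 96.9 ± 4.24 against 80.4 ± 3.34 CPM on day 0 (0.27, SE 0.05, edgeR adjusted p = 6.41e-05). Mmp11 passed as higher on day −1 (37.3 ± 1.74 against 30.4 ± 1.19 CPM), with 69.8 ± 3.99 against 71.6 ± 4.01 CPM on day 0.

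Mmp28 (chromosome 11, 83440768 to 83463071, minus strand) was lower on every day, with no overlap on any. On day −2 it measured 7.92, 7.05, 8.39, 8.41 and 7.49 CPM with Kdm5c siRNA and 10.9, 9.13, 9.63, 10 and 9.4 CPM with scramble (log2 fold change −0.32, SE 0.06, edgeR adjusted p = 0.000211). On day −1 it measured 19.3, 19.3, 19, 19 and 16.3 CPM against 24.0, 23.3, 25.1, 24.0 and 22.5 CPM (−0.36, SE 0.05, adjusted p = 3.38e-07). On day 0 it measured 24.4, 25, 24.5, 25.8 and 24.0 CPM against 35.6, 33.6, 33.2, 37.6 and 35.4 CPM (−0.50, SE 0.05, adjusted p = 8.64e-11). The siRNA cells thus showed a rise from day to day that ended at a lower level.

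Mmp2 and Mmp13 were lower on day 0, but their libraries overlapped. For both, scramble replicate 1 (1845 and 23.2 CPM) was the only scramble library within the Kdm5c siRNA range. Mmp2 measured 1654, 1907, 1917, 1842 and 1924 CPM with Kdm5c siRNA against 1845 to 2336 CPM with scramble (log2 fold change −0.23, SE 0.06, edgeR adjusted p = 0.0021). Mmp13 measured 19.7, 18.7, 25.1, 26.9 and 24.7 CPM against 23.2 to 36.0 CPM (−0.38, SE 0.10, adjusted p = 0.00282). On day −1 Mmp2, at 521.4 ± 23.6 against 602.2 ± 59.1 CPM, passed as lower (−0.21, adjusted p = 0.00666), but not without scramble replicates 1 to 3 (−0.05, adjusted p = 0.675). The membrane protease Mmp14 was lower on day −2 (442.9 ± 6.65 against 475.8 ± 7.98 CPM, no overlap, −0.10, adjusted p = 0.0078), and its day −1 call (−0.07, adjusted p = 0.0345) was lost without scramble replicate 1, 2 or 3 (adjusted p = 0.0919, 0.0897 and 0.119) or Kdm5c siRNA replicate 1 or 5 (0.081 and 0.107), and without scramble replicates 1 to 3 together (−0.01, adjusted p = 0.921). On day 0 it was at 1153 ± 29.9 against 1170 ± 43.4 CPM, with no call. Mmp23 was higher on day 0 at 44.3 ± 2.79 against 38.0 ± 1.51 CPM with no overlap (0.22, SE 0.04, edgeR adjusted p = 0.000137); its day −2 call (0.13, adjusted p = 0.0396) was lost in 8 of the 10 fits that left out a library of that day, and its day −1 call (0.14, adjusted p = 0.0132) without scramble replicate 5 (0.11, adjusted p = 0.0565).

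**Figure D3:**
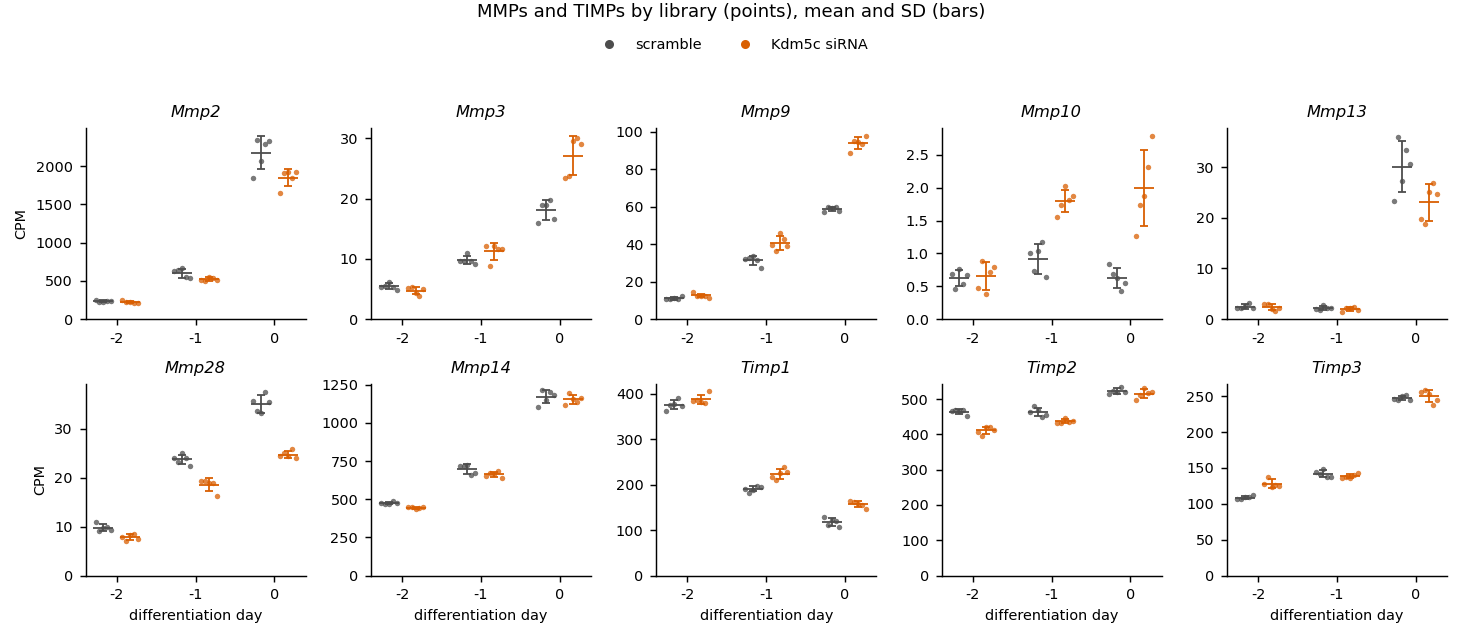
CPM of 7 MMPs and 3 TIMPs in every library (points) by differentiation day, with mean and SD (bars, n = 5), grey for scramble and orange for Kdm5c siRNA; each panel has its own linear axis from 0. On day 0 all Mmp9, Mmp3, Mmp10 and Timp1 points with Kdm5c siRNA lie above those with scramble, all Mmp28 points lie below, and Mmp2 and Mmp13 points overlap.

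Mmp3, Mmp10 (stromelysin 2) and Mmp13 lie in a cluster of 9 Mmp genes within 427 kb of chromosome 9 (7272514 to 7699585). The other 6 genes of the cluster were below the minimum: Mmp1b, Mmp27, Mmp8 and Mmp12 had 288, 152, 108 and 34 reads over all 30 libraries, Mmp7 had 1 and Mmp20 had 0. The neighbours did not move alike. With Kdm5c siRNA on day 0, Mmp3 was higher and Mmp13 lower than in scramble, as above. Mmp10 (7502352 to 7510240, plus strand) measured 1.27, 1.73, 1.88, 2.32 and 2.79 CPM with Kdm5c siRNA on day 0 and 0.835, 0.686, 0.63, 0.431 and 0.548 CPM with scramble. On recovered reads, where 30.9% of 14219 genes were called in either direction, its log2 fold change was 1.66 (SE 0.21, edgeR adjusted p = 8.76e-08). On day −1 it was at 1.80 ± 0.173 against 0.917 ± 0.224 CPM with no overlap (0.97, SE 0.19, adjusted p = 0.000164; 30.7% of genes called), and on day −2 at 0.652 ± 0.214 against 0.622 ± 0.123 CPM with no call (adjusted p = 0.884; 18.9% of genes called).

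The sequences before the starts of these genes are shown because the same motif lies in all 3 and in few other members. RefSeq (GRCm38.p6) gave a promoter window, 300 bases from 250 before to 50 after a gene's start, for 26 of the 41 members (29 windows). The AP-1 motif TGANTCA, which reads the same on both strands, occurred in 7.81% of all 32851 windows and in those of 4 members, the 3 clustered MMPs and Adam19. The TATAAA motif, searched on both strands, occurred in 13.6% of all windows and in those of Mmp3, Mmp10, Mmp13 and Adamts1. A match is a stretch of letters and shows no binding. The 30-base stretches follow on the plus strand, 5′ to 3′, with the AP-1 motif in capitals. Its first base lies 46, 63, 35 and 131 bases before the RefSeq start in the order shown. That start differs from the GENCODE start for Mmp10 (7502352) and Adam19 (46055992). The stretches are chr9:7445764-7445793, chr9:7502267-7502296, chr9:7272467-7272496 and chr11:46055841-46055870.
Mmp3: tggaagcaattaTGAGTCAgttttcgggtg
Mmp10: atagcacccatgTGAGTCAtgcttagtgac
Mmp13: accccaaagtggTGACTCAtcactatcatg
Adam19: gtgtccttcaccTGAGTCAgcgatgctccc

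Adam19, the fourth gene with the motif, was at 65.9 ± 2.69 CPM with Kdm5c siRNA against 69.5 ± 3.09 CPM on day 0, not called (log2 fold change −0.07, edgeR adjusted p = 0.0637) except with library totals alone, as above.

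Timp1 was the TIMP with the largest siRNA difference. On day 0 it measured 163, 162, 158, 155 and 147 CPM with Kdm5c siRNA, all above the scramble values of 107 to 129 CPM (log2 fold change 0.41, SE 0.04, edgeR adjusted p = 1.07e-10). On day −1 it measured 217, 211, 226, 239 and 228 CPM, all above 182 to 197 CPM (0.24, SE 0.04, adjusted p = 3.2e-06). On day −2 it was at 387.4 ± 10.7 against 376.1 ± 9.71 CPM with no call (0.05, adjusted p = 0.353). Timp2 was lower on day −2, at 407, 396, 421, 421 and 412 CPM against 465, 468, 467, 468 and 451 CPM with no overlap (−0.17, SE 0.02, adjusted p = 1.81e-07). Its day −1 call (−0.08, adjusted p = 0.00176) was lost without scramble replicates 1 to 3 (−0.05, adjusted p = 0.202), and on day 0 it was at 515.6 ± 11.8 against 522.2 ± 7.87 CPM. Timp3 passed as higher on day −2, at 128.2 ± 5.68 against 108.7 ± 2.77 CPM with no overlap (0.24, SE 0.03, edgeR adjusted p = 7.03e-08), and stood at 249.9 ± 8.74 against 247.8 ± 3.15 CPM on day 0. Each of the 3 TIMPs had an effect on day 0 that differed from that on day −2, by 0.37 for Timp1, 0.15 for Timp2 and −0.23 for Timp3 (edgeR adjusted p = 4.83e-06, 0.000362 and 0.0001).

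The ratio of summed MMP to summed TIMP levels, each gene in CPM per kb, sets these changes side by side. In scramble libraries it was 0.336 ± 0.0126 on day −2, 1.03 ± 0.0762 on day −1 and 3.21 ± 0.34 on day 0. With Kdm5c siRNA it was 0.324 ± 0.0114, 0.894 ± 0.0247 and 2.57 ± 0.145. On day −1 the scramble values were 1.06, 1.09 and 1.11 in replicates 1 to 3 and 0.96 and 0.947 in replicates 4 and 5, all above the highest of Kdm5c siRNA, 0.918. On day 0 the groups touched, with scramble at 2.72 to 3.53 and Kdm5c siRNA at 2.33 to 2.73. The scramble value of 2.72 was that of replicate 1, and the next lowest was 3.02. The ratio counts transcripts, most of them from Mmp2, Mmp14, Timp1 and Timp2, and carries no test. Its size depends on the gene length used, here all exon bases of a gene. For Mmp14 these are 5960 bases, against 3238 in its longest transcript. The ratio was not computed with the longest transcript as length.

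**Figure D4:**
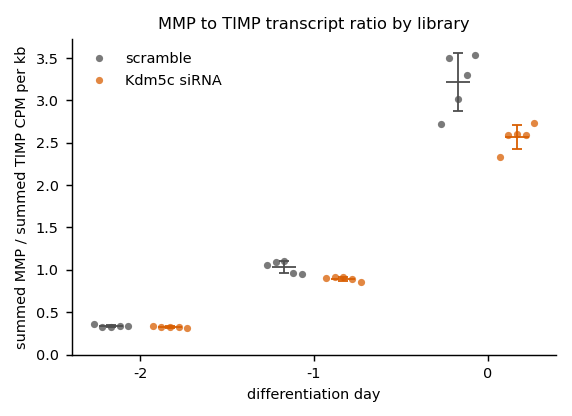
Ratio of summed MMP to summed TIMP CPM per kb in each library (points) by differentiation day, with mean and SD (bars, n = 5), grey for scramble and orange for Kdm5c siRNA. The mean goes from 0.336 to 3.21 in scramble and from 0.324 to 2.57 with Kdm5c siRNA.

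Of the 9 tested ADAMs, 3 were higher on day 0 and the other 6 were not called. Adam12 was higher with no overlap on each day. With Kdm5c siRNA it measured 149, 155, 138, 138 and 133 CPM on day −2, 59.4, 55.9, 54.7, 56.3 and 61.1 CPM on day −1, and 25.1, 26.4, 27.7, 27.1 and 26.3 CPM on day 0. The log2 fold changes over scramble were 0.29, 0.44 and 0.47 (SE 0.04, 0.05 and 0.05, edgeR adjusted p = 9.99e-07, 1.45e-09 and 2.11e-08). The effects on day 0 and day −2 did not differ at the threshold (0.18, SE 0.07, edgeR adjusted p = 0.058). With library totals alone that difference was called (0.185, edgeR adjusted p = 0.0483), as it was by DESeq2 and by limma. The targeted cells thus held more Adam12 mRNA on each day while it fell over the days with either siRNA. Adam8, a leukocyte-associated ADAM, measured 16.5, 16.3, 14.2, 14.4 and 14.4 CPM on day 0, above the scramble range of 10.8 to 13.4 CPM (0.32, SE 0.06, edgeR adjusted p = 0.000122). Macrophage markers summed to 3.93 to 5.7 CPM with Kdm5c siRNA and 2.6 to 3.39 CPM with scramble that day. In both groups 2 of 5 were at a mean of 1 CPM or more and Adgre1 was at 0. The part of these markers in the result was not tested. The day −1 call of Adam8 (0.26, adjusted p = 0.000589) was lost without scramble replicates 1 to 3 (0.21, adjusted p = 0.053). Adam9, at 238.0 ± 3.15 against 222.8 ± 4.12 CPM, was the third.

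Adam23 was lower on day −1, at 117, 112, 138, 118 and 123 CPM with Kdm5c siRNA against 168, 168, 164, 133 and 134 CPM with scramble (log2 fold change −0.33, SE 0.06, edgeR adjusted p = 3.88e-05). The groups overlapped, and the call was lost without scramble replicates 1 to 3, with a log2 fold change of −0.14 (adjusted p = 0.129). On day 0 it was not called (−0.14, adjusted p = 0.0573) except with library totals alone (adjusted p = 0.0492). Adam33 was lower on day −2, at 2.02, 2.37, 2.24, 2.51 and 2.36 CPM against 2.39 to 3.19 CPM (−0.32, SE 0.11, adjusted p = 0.0323). That call was lost without scramble replicate 1, 3 or 5 or Kdm5c siRNA replicate 1 or 3 (adjusted p = 0.0563 to 0.0937), and on day 0 it was at 20.8 ± 1.16 against 20.6 ± 1.52 CPM. The sheddases Adam10 and Adam17 stood at 208.0 ± 2.83 against 211.6 ± 3.37 CPM and 116.9 ± 1.88 against 114.1 ± 3.01 CPM on day 0, and passed the test on no day. Adam1a (1.30 ± 0.271 against 1.32 ± 0.23 CPM) shares exons with other genes on its strand and is uncertain, and Adam5 was at 0.670 ± 0.255 against 0.439 ± 0.179 CPM with no call (edgeR adjusted p = 0.0802).

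The procollagen N-proteinases, which trim the ends of fibrillar procollagens, differed in opposite directions. Adamts2 was lower on day 0, at 66.5, 75.5, 75.8, 72.8 and 73.0 CPM with Kdm5c siRNA against 86.2, 101, 90.0, 96.0 and 94.5 CPM, with no overlap (log2 fold change −0.36, SE 0.04, edgeR adjusted p = 8.16e-09). Its day −1 call (−0.22, adjusted p = 7.61e-05) was lost without scramble replicates 1 to 3 (−0.13, adjusted p = 0.065), although the libraries did not overlap. Adamts14 was higher on day 0, at 38.2, 38.1, 38.8, 38.5 and 38.7 CPM against 30.7, 30.9, 32.2, 29.9 and 30.1 CPM (0.33, SE 0.04, adjusted p = 1.02e-08). It was higher on day −1 as well, at 53.9, 51.6, 51.5, 52.1 and 52.6 CPM against 39.4 to 44.0 CPM (0.34, SE 0.03, adjusted p = 8.76e-10), and on day −2 at 56.9 ± 2.84 against 52.1 ± 2.23 CPM with overlap (0.13, adjusted p = 0.00319). Adamts3, the low member of this class, was at 0.354 ± 0.141 against 0.150 ± 0.0956 CPM on day 0, a few reads per library, with overlap. On recovered reads it was called higher on day 0 (1.21, SE 0.45, edgeR adjusted p = 0.0394) and on day −1. On those days 30.9% and 30.7% of 14219 genes were called in either direction. Adamts3 reached the minimum in 3 of the 6 groups, so these differences are partly built into the choice of members.

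Of the 4 tested proteoglycan-cutting ADAMTS genes, Adamts1 and Adamts9 were lower on days −1 and 0, Adamts5 was higher on day −2, and Adamts4 was not called except on day −1 without scramble replicates 1 to 3, as above. Adamts1 measured 390, 386, 462, 464 and 465 CPM with Kdm5c siRNA on day 0, all below the scramble range of 566 to 636 CPM (log2 fold change −0.46, SE 0.06, edgeR adjusted p = 2.73e-07). On day −1 it measured 181, 163, 174, 180 and 188 CPM, below 204 to 261 CPM (−0.41, adjusted p = 4.45e-06; without scramble replicates 1 to 3, −0.26, adjusted p = 0.0114). On day −2 it was at 191.1 ± 11.2 against 188.8 ± 14.7 CPM. Adamts9 measured 16.3, 16.7, 18.3, 17.2 and 17 CPM on day −1 against 24.2, 26.4, 23.8, 21.4 and 20.3 CPM, with no overlap (−0.44, SE 0.07, adjusted p = 1.43e-05; without those 3 libraries −0.28, adjusted p = 0.0215). On day 0 it was at 38.1 ± 3.65 against 46.8 ± 5.03 CPM with overlap (−0.29, edgeR adjusted p = 0.000421). Adamts5 measured 90.4, 80.3, 101, 105 and 105 CPM on day −2 against 75.4, 80.3, 81.2, 66.6 and 73.4 CPM (0.36, SE 0.05, adjusted p = 5.26e-06), with overlap, and 145.8 ± 6.23 against 138.4 ± 3.68 CPM on day 0. Adamts15 was at 1.22 ± 0.232 against 1.49 ± 0.34 CPM on day 0, with no call.

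Adamts7 and Adamts12, close relatives that cut cartilage oligomeric matrix protein, had their largest differences on different days. Adamts7 (chromosome 9, 90163069 to 90208071, plus strand) measured 50.8, 50.5, 50.1, 53.9 and 53.1 CPM with Kdm5c siRNA on day 0, all above the scramble values of 30.8, 31.3, 33.7, 33.5 and 34.1 CPM (log2 fold change 0.66, SE 0.05, edgeR adjusted p = 3.92e-12). On day −1 it measured 35.1, 31.8, 40.1, 38.1 and 38.5 CPM against 24.7 to 30.6 CPM with no overlap (0.44, SE 0.05, adjusted p = 6.16e-08), and on day −2 16.2 ± 1.11 against 15.9 ± 0.622 CPM (0.03, adjusted p = 0.754). Adamts12 (chromosome 15, 11064790 to 11349231, plus strand) had its largest difference on day −2, at 56.9, 59.6, 57.2, 59.9 and 59.9 CPM against 39.6, 44.3, 39.9, 39.1 and 42.3 CPM with no overlap (0.52, SE 0.06, adjusted p = 1.25e-07). It was higher on day −1, at 49.9, 50.5, 49.8, 52.4 and 55.6 CPM against 38.7 to 48.3 CPM (0.25, SE 0.06, adjusted p = 0.00212; 0.41 without scramble replicates 1 to 3, adjusted p = 0.000201), and was at 70.6 ± 5.03 against 71.7 ± 7.74 CPM on day 0. The effects on day 0 and day −2 differed by 0.63 for Adamts7 and by −0.54 for Adamts12 (SE 0.08 and 0.09, edgeR adjusted p = 1.44e-06 and 4.08e-05).

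Adamts6 and Adamts10, relatives associated with fibrillin microfibrils, also parted. Adamts6 measured 17.9, 19.5, 18.8, 20 and 18.1 CPM with Kdm5c siRNA on day 0, below the scramble values of 22.3, 27.2, 24.2, 24.5 and 25.9 CPM (log2 fold change −0.40, SE 0.06, edgeR adjusted p = 4.12e-06). On day −2 it was at 12.2 ± 1.07 against 10.9 ± 0.952 CPM with no call (0.17, adjusted p = 0.0793), and the effects of the 2 days differed by −0.57 (SE 0.09, adjusted p = 5.68e-05). Adamts10, at 92.0 ± 3.92 against 86.7 ± 1.85 CPM on day 0, passed narrowly (0.09, adjusted p = 0.0464), and not with median-of-ratios scaling (adjusted p = 0.0517), upper-quartile scaling (0.0502) or library totals alone (0.051). Adamts16, on recovered reads, was at 1.48 ± 0.35 against 0.917 ± 0.112 CPM on day 0 with no overlap (0.69, SE 0.20, edgeR adjusted p = 0.00716).

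**Figure D5:**
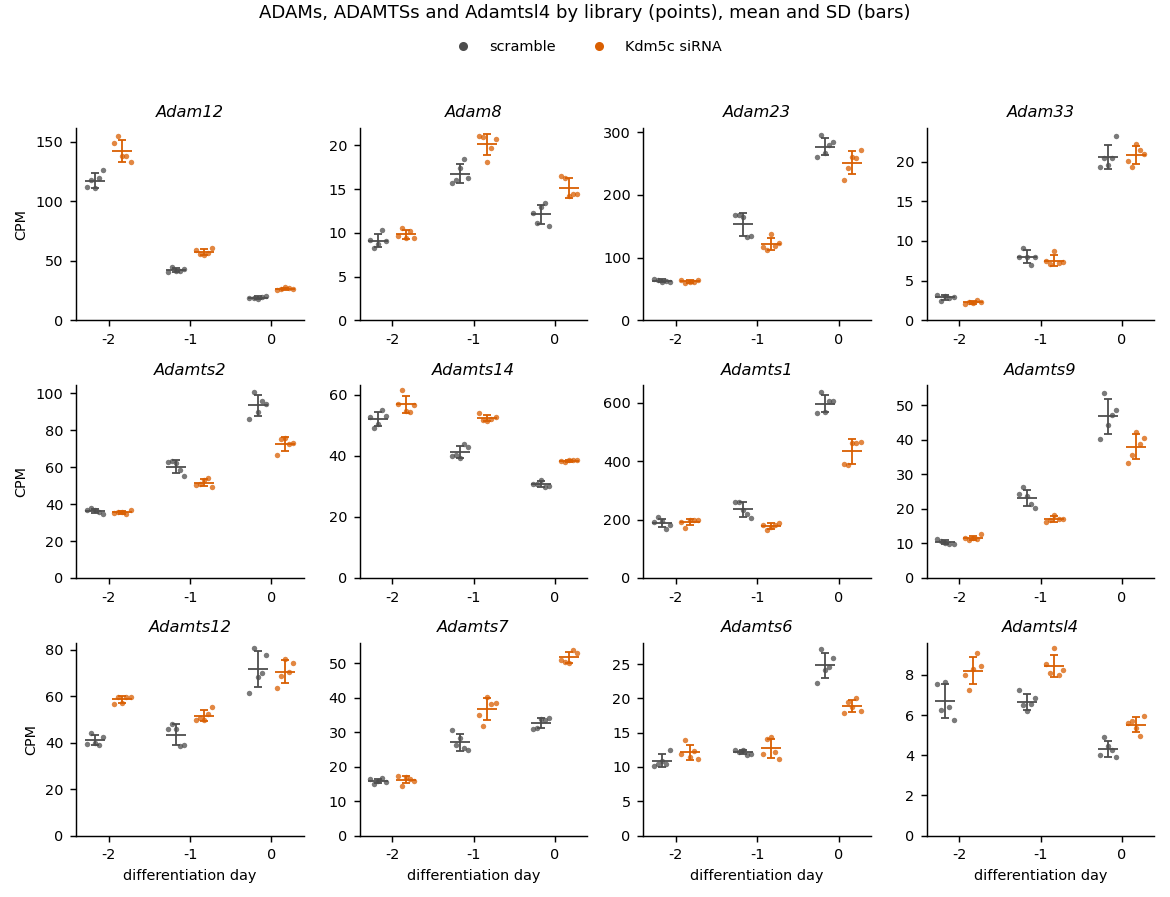
CPM of 4 ADAMs, 7 ADAMTSs and Adamtsl4 in every library (points) by differentiation day, with mean and SD (bars, n = 5), grey for scramble and orange for Kdm5c siRNA; each panel has its own linear axis from 0. Adam12 and Adamts14 fall over the days with either siRNA and lie higher with Kdm5c siRNA, Adamts7 points part on days −1 and 0, and Adamts12 points part on days −2 and −1.

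The ADAMTS-like genes encode secreted proteins with thrombospondin repeats and no protease domain. Adamtsl4 was higher on each day, at 5.6, 5.69, 5.38, 4.94 and 5.94 CPM against 4.01, 4.91, 4.45, 4.25 and 3.91 CPM on day 0 (log2 fold change 0.36, SE 0.09, edgeR adjusted p = 0.00106), where the groups did not overlap. On day −2 it measured 7.99, 7.25, 8.28, 9.1 and 8.44 CPM against 7.55, 6.25, 7.64, 6.39 and 5.74 CPM, which overlapped (0.29, adjusted p = 0.00391). Adamtsl5 was lower on each day, at 57.2 ± 2.12 against 62.4 ± 2.22 CPM on day 0 (−0.12, adjusted p = 0.0219) and at 18.4, 20.8, 17.4, 18.7 and 20.7 CPM against 19.9, 20.9, 22.9, 22.3 and 22.1 CPM on day −2 (−0.17, adjusted p = 0.0193). The day 0 call was lost without scramble replicate 4 (adjusted p = 0.0671) or Kdm5c siRNA replicate 4 or 5 (0.0657 and 0.0604), and the day −2 call without scramble replicate 3 (0.0613) or Kdm5c siRNA replicate 1 or 3 (0.0503 and 0.0691). Adamtsl3 was higher on day −2 (16.5 ± 1.44 against 14 ± 1.15 CPM, adjusted p = 0.00193) and on day −1 (15.6 ± 1.09 against 13.4 ± 0.602 CPM, adjusted p = 0.00387), the latter not without scramble replicates 1 to 3 (adjusted p = 0.107).

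The siRNA effect itself differed between day 0 and day −2 for 13 of 34 members, 6 of them toward higher and 7 toward lower, where 9.95% of all genes were called higher and 6.18% lower in that difference. Those toward higher were Mmp3, Adamts7, Mmp9, Timp1, Adamts14 and Timp2, and those toward lower were Adamts6, Adamts12, Adamts1, Adamts9, Adamts2, Adamts5 and Timp3. Of the 9 ADAMs, 0 had a difference past the threshold by edgeR, with 5 at an unadjusted p under 0.05. With library totals alone edgeR called Adam12 (adjusted p = 0.0483). DESeq2 called 1 (Adam12) and limma on log2(CPM + 0.5) called 2 (Adam12 and Adam33). The difference uses the same libraries as the effects of single days.

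Other genes that act with these enzymes were read from lists written from textbook knowledge. For comparison with the counts below, 19.3% of all genes were called higher and 16.2% lower on day 0 with Kdm5c siRNA. Of 6 tested genes of plasminogen activation, which feeds MMP activation, 4 were higher and 1 lower on day 0 with Kdm5c siRNA; the urokinase receptor Plaur (log2 fold change 0.45, edgeR adjusted p = 1.33e-06), urokinase Plau (0.32, adjusted p = 3.37e-05) and tissue plasminogen activator Plat (0.15, adjusted p = 0.00336) were among the former. Of 7 tested activators and other inhibitors, 1 was higher and 1 lower on day 0: Thbs1 (thrombospondin 1) at 0.46 (adjusted p = 2.97e-09) and Lrp1, the receptor that clears MMPs from the medium, at −0.10 (adjusted p = 0.000459). Of 6 tested partners of Adam10 and Adam17, 2 were higher and the other 4 were not called: Frmd8 at 0.17 and Rhbdf2 at 0.18, whose products bind each other in the complex that matures Adam17 (edgeR adjusted p = 6.03e-05 and 0.000223). Of 15 tested proteins that ADAMs or MMPs shed, 6 were higher and 5 lower on day 0, among them Cd44 at 0.42 and Ereg at 0.45 against Notch1 at −0.57 (edgeR adjusted p = 4.25e-13, 4.38e-07 and 9.62e-12). Of 4 tested ADAMTS substrates, 2 were higher and 1 lower, with Ltbp1 at 0.68, Fn1 at 0.10 and Vcan (versican) at −0.11 (edgeR adjusted p = 5.66e-18, 0.00071 and 0.0057).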

How the data were processed

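For 30 strand-specific mRNA libraries the authors deposited CPM (55573 genes) and counts (12016 genes). Tools named by the submitters' processing notes were STAR 2.7.2a and edgeR 3.26.8, with build GRCm38; a read counter and its strand setting were not given in the sources used here. Of the nonzero CPM values, 100.0% were within 0.05 reads of whole reads over the library total, and 100.0% of deposited counts equalled those reads; the counts table held genes that reached 1 CPM in at least 20 libraries. Because strand use in counting is not stated, members with an antisense neighbour (Adam1a, Adam8, Adam15, Adam17, Adam19, Adamts4, Adamts7, Adamts9, Mmp11, Mmp19, Mmp28 and Timp3) may share reads with it. Coordinates and exon lengths came from GENCODE M21 (GRCm38).

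Printed CPM are the deposited values, and ± marks the SD of 5 libraries. Fold changes, SEs and two-sided p-values came from edgeR 4.0.16 (R 4.3.3): quasi-likelihood, TMM scaling (factors 0.969 to 1.03), 6 group means, 24 residual degrees of freedom, common biological coefficient of variation 0.0367, Benjamini-Hochberg adjustment over 12016 genes, called under 0.05. TMM makes the fold changes differ slightly from ratios of CPM. The low members were fitted on recovered reads with 14219 genes. No replicate pair (60 compared) agreed within sampling noise. Alternatives used limma 3.58.1 on log2(CPM + 0.1, 0.5 or 2), DESeq2 1.42.0, other scalings and filters, a replicate block and left-out libraries.

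Values in every library are given for members among the 4 with the largest fold change each way per siRNA day or scramble step, called and at 2 CPM or more on average; other members given in full (Mmp10, Adamts2) were chosen after their values were seen. The members and lists were chosen with earlier results of these data known.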

Additional observations from a re-analysis of the deposited data

Results flagged for a closer look

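A difference between the siRNA effects on day 0 and day −2 was found for 13 members, by edgeR's test of the difference itself (adjusted over 12016 genes). On the log2 scale the difference was 0.80 for Mmp3, 0.63 for Adamts7, 0.49 for Mmp9, 0.37 for Timp1, 0.19 for Adamts14 and 0.15 for Timp2. It was −0.57 for Adamts6, −0.54 for Adamts12, −0.48 for Adamts1, −0.47 for Adamts9, −0.33 for Adamts2, −0.28 for Adamts5 and −0.23 for Timp3.

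In 6 of 126 groups of 5 libraries (21 members, 6 groups each), 1 library lay apart from the other 4 by more than Dixon's limit of 0.71 of the range; chance gives about 1 in 20 such groups. Timp2 was at 451 CPM in scramble day −2 replicate 5, against 465 to 468 CPM in the others, and at 447 CPM in Kdm5c siRNA day −1 replicate 3, against 433 to 437 CPM. In that same library Adam33 was at 8.69 CPM, against 7.05 to 7.49 CPM. Adamtsl5 was at 33.3 CPM in scramble day −1 replicate 3, against 36.3 to 37.4 CPM. Mmp28 was at 16.3 CPM in Kdm5c siRNA day −1 replicate 5, against 19 to 19.3 CPM, and Mmp3 at 8.75 CPM in replicate 2 of that group, against 11.6 to 12.1 CPM.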

How the results depend on the processing

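Refits were compared for 83 results for single members. These were the calls on the siRNA days, those in the difference of effects, and some in the scramble steps. From each scramble step only the members among its 4 largest fold changes each way were taken. Over 1993 refits, 1943 kept direction and side of the threshold, 50 in 13 results lost the call, and 0 reversed. Those whose loss follows 1 library or scaling are given with the result. The call of Adamts10 on day 0 was lost in 18 of 22 refits. The other scramble calls are outside the 83 results, and losses among them for Adamts1, Adam19 and Timp2 are given with the gene. The first-step fall of Adamtsl3 was lost with upper-quartile scaling (adjusted p = 0.28) or library totals alone (0.376), and a rise of Adamts6 was gained (0.0493 and 0.034). Leaving out each library in turn gave 3 to 5 members lower on day −2, with 3 without scramble replicate 3 or Kdm5c siRNA replicate 1 or 3. Of all 12016 genes, 1175 to 1372 were called lower in these fits, against 1426 with all libraries. Leaving out scramble day −1 replicates 1 to 3 together gave 4 members lower on day −1, against 9, where 10.7% of all genes were called lower, against 16.8%. The other counts of members called stayed within 1.5 times under every alternative run. Between the siRNAs, the correlation of same-numbered deviations from the group mean ran from −0.249 to 0.33, over 0.1 in 5 of 15 pairs. Replicate 1 had the highest values, 0.33 on day 0 and 0.243 on day −2, and was at −0.044 on day −1. Whether same-numbered libraries shared a batch was not tested. With a replicate block, 11 members were higher and 8 lower on day 0, against 12 and 8. Of all 12016 genes, 2308 were then called higher and 1897 lower, against 2321 and 1941. With the longest transcript as length, 8 to 10 of the 10 members most abundant per kilobase were shared. Members below 1 CPM rest on few reads, and their fold changes are imprecise.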
